A study of Mus musculus with 6 samples.

Results

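NRF2 is the transcription factor encoded by *Nfe2l2* and the main activator of antioxidant and detoxification genes. In unstressed cells its adaptor KEAP1 ties it to a CUL3 and RBX1 ubiquitin ligase, which marks NRF2 for degradation. Oxidants and electrophiles modify KEAP1, NRF2 accumulates, pairs with a small MAF protein and binds antioxidant response elements (ARE) at its target genes. Because this control acts on the protein, an unaltered *Nfe2l2* mRNA level does not give the activity of NRF2. In adipocytes, high fatty acid oxidation and mitochondrial respiration form reactive oxygen species that these enzymes remove. The genes described here are *Nfe2l2* itself and 9 textbook targets: *Txnrd1* and *Srxn1* of the thioredoxin system, *Slc7a11*, *Gclc*, *Gclm* and *Gsr* of glutathione metabolism, *Nqo1* and *Hmox1* of quinone and heme breakdown, and *G6pdx* of NADPH supply. They were chosen by name with earlier results of these data known, as 10 of 52089 gene symbols in the table, and all 10 were measured.

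The study asked what the long noncoding RNA *Ctcflos* does in brite adipocytes, the thermogenic adipocytes that form in white fat. Primary preadipocytes came from the stromal-vascular fraction of inguinal white adipose tissue of 129SvEv mice, were induced for 2 days and then differentiated with rosiglitazone, a PPARγ agonist that promotes browning. On day 1 of differentiation they received 50 nM of an LNA Gapmer antisense oligonucleotide, ASO1 against *Ctcflos* transcript 1 in the 3 *Ctcflos* KD libraries and a nontargeting one in the 3 NC ctrl libraries, and the RNA was taken 24 h later. The labels do not say whether replicates were separate cultures or animals, so that p-values measure the spread between these libraries, which may be technical. Only 1 oligonucleotide against *Ctcflos* was used in these libraries, and an effect of *Ctcflos* loss and an effect of this oligonucleotide cannot be told apart.

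Values are RPKM, which divide reads by transcript length in kilobases and by the mapped reads of the library, averaged over all transcript accessions of a gene. The depth recovered from low RPKM values was 60.8 to 75.5 mio mapped reads in *Ctcflos* KD and 62.9 to 79.2 mio in NC ctrl. The paper states a lower number of paired-end reads per sample. Whether the recovered depth counts both reads of a pair is not given in the sources used here. *Ctcflos*, the targeted gene, was at 0.0969, 0.0705 and 0.210 RPKM in *Ctcflos* KD replicates 1, 2 and 3 and at 0.748, 0.751 and 0.840 RPKM in NC ctrl replicates 1, 2 and 3. Its log2 fold change, taken on RPKM + 1 without a filter, was -0.66 (SE 0.0840, limma adjusted p = 0.025). For values under 1 RPKM this scale understates the change. The ratio of the means was 0.161, and with 0.1 added in place of 1 the log2 fold change was -2.01 (limma, adjusted p = 0.019). On RPKM + 1, leaving out KD replicate 1 or 2 or NC ctrl replicate 1, 2 or 3 gave an adjusted p of 0.062 to 0.13 for *Ctcflos*. *Ctcflos* KD replicate 3 stood apart: across genes its r was 0.985 with NC ctrl replicate 2 but 0.969 and 0.975 with the other KD libraries, and its *Ctcflos* level was the highest of the 3. KD replicates 1 and 2 correlated with each other at r = 0.985 and with the controls at r = 0.946 to 0.958. The calls of the NRF2 genes and of the lists are therefore also given without KD replicate 3. This library was singled out after its values were seen. Leaving out the KD library most like the controls favours calls, so that more calls in that fit are no separate result.

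The defining adipocyte transcripts were abundant, with 10 adipocyte markers summing to 3982 to 5322 RPKM in KD and 5637 to 6299 RPKM in NC ctrl. Of the 9 tested, 2 fell and 0 rose. These 2 were *Cebpa* (log2 fold change -0.89, limma adjusted p = 0.038) and *Ucp1* (-1.21, limma adjusted p = 0.048). At an unadjusted p under 0.05 it would be 7 lower and 0 higher. At that unadjusted level were 4556 of all 11701 genes tested, in either direction. Of all genes tested, 12.4% were called lower. In 7 of the 9 markers all KD libraries were below all controls, as in 21.9% of all genes. Without KD replicate 3 there were 4 markers called lower, where 17.8% of all genes were. Without KD replicate 1 or 2, or NC ctrl replicate 1 or 3, 0 markers were called (limma). Over all genes 1164, 1094, 421 and 369 were called in these fits, against 2803 with all libraries. Of the 5 progenitor markers, 4 were tested and *Pdgfra* fell (log2 fold change -0.69, limma adjusted p = 0.010), with sums of 173 to 397 RPKM in KD and 271 to 446 RPKM in NC ctrl, and without KD replicate 3 there was 1 call in each direction. The 7 macrophage markers summed to 7.27 to 17.0 RPKM in KD and 9.24 to 28.7 RPKM in NC ctrl. Of these, 2 were tested, and *Cd68* rose from 1.08 to 3.24 RPKM (limma, adjusted p = 0.023). Under the filter, *Csf1r* averaged 1.30 RPKM in KD and 0.514 RPKM in NC ctrl, and *Cd14* averaged 0.591 and 0.904 RPKM. *Ptprc*, which defines leukocytes, was at 0.049 RPKM or less in every library. *Lyz2*, also a macrophage marker, had a log2 fold change of -2.28 without KD replicate 3 (limma, adjusted p = 0.0077) and did not pass the test with it. The 4 endothelial markers summed to 0.647 to 0.922 RPKM in KD and 1.07 to 1.35 RPKM in NC ctrl. In bulk RNA, fewer cells of a type and less RNA per cell cannot be told apart, and the part of these shifts in the values of the NRF2 genes was not tested.

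Start regions of the NRF2 genes were read to show where the core letters of an ARE occur. The motif searched was TGACNNNGC, on both strands, in windows from 250 bases before to 50 bases after each RefSeq start (GRCm38.p6). The AP-1 site TGACTCA can take the first 7 letters of this core, and none of the matches shown has it. Of the 10 genes, 7 had a window in the RefSeq promoter table, with 9 windows in all because *Txnrd1* has 3. The core was found in 5 of these 9 windows and in 4071 of all 32851 windows, or 12.4%. Each match is printed with 10 bases on either side on the strand where the core reads forward, and capitals mark the 9 letters of the core:
Nfe2l2: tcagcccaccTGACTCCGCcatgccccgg
Txnrd1: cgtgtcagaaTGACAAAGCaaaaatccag
Srxn1: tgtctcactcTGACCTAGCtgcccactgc
Gclm: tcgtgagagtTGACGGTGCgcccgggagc
G6pdx: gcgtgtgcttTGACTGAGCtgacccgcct

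The *Nfe2l2* stretch is on the minus strand at chr2:75704885-75704913, with the core at -240 to -232 from the start. That of *Txnrd1* is printed from the minus strand at chr10:82859104-82859132, at -92 to -84, and belongs to 1 of its 3 windows. The *Srxn1* stretch is printed from the minus strand at chr2:152105542-152105570, at 29 to 37 bases after the start. That of *Gclm* is printed from the minus strand at chr3:122245413-122245441, at -134 to -126, and that of *G6pdx* from the plus strand at chrX:74428919-74428947, at -57 to -49. The *Nqo1* and *Slc7a11* windows did not hold these letters, which says nothing on NRF2 binding elsewhere. *Hmox1*, *Gclc* and *Gsr* were not in the table. The matches occurred both in a gene that rose in KD (*Txnrd1*) and in 4 that did not pass the test.

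Of the 10 NRF2 genes, 3 rose in *Ctcflos* KD at an adjusted p under 0.05 (*Txnrd1*, *Nqo1* and *Gclc*), 0 fell and 7 did not pass the test (limma). At an unadjusted p under 0.05 it would be 5 higher and 1 lower, and 4556 of all genes tested were at that level in either direction. Among all 11701 genes tested, those with a mean of at least 1 RPKM, 24% were called, 11.5% higher and 12.4% lower, so that a call by itself was common in this comparison. The median log2 fold change was 0.37 over the 10 genes and 0.028 over all genes. In 4 genes every KD library was above every control library and in 2 all KD libraries were below, against 22.9% and 21.9% of all genes tested, together 44.8%. Without KD replicate 3, 7 of the 10 genes were called higher and 0 lower, with a median of 0.54, while of 11704 genes then tested 41.1% were called, 23.3% higher and 17.8% lower. The 3 genes that were called in neither fit were *Slc7a11*, *Gsr* and *G6pdx*.

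**Figure D1:**
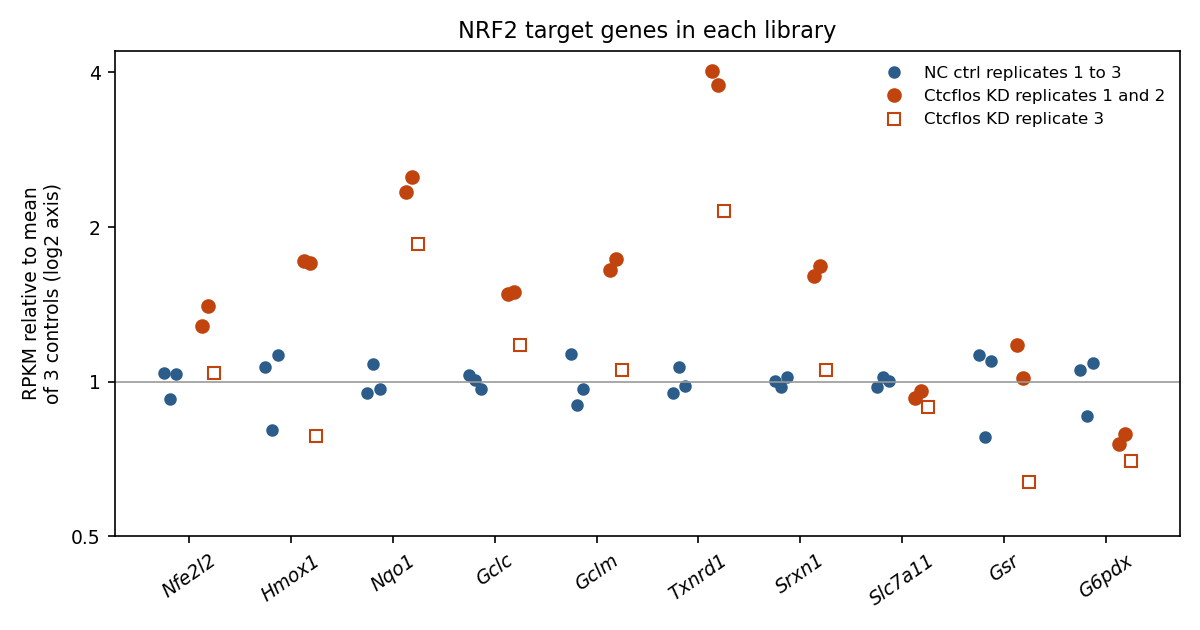
RPKM of each NRF2 target gene in each library, divided by the mean of the 3 NC ctrl libraries and drawn on a log2 axis, with NC ctrl in blue, *Ctcflos* KD replicates 1 and 2 as filled red circles and KD replicate 3 as an open square. KD replicate 3 lies below the other KD libraries in all 10 genes, and for *Nqo1* and *Txnrd1* it is still at 1.86 and 2.15 times the control mean.

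*Txnrd1* encodes cytosolic thioredoxin reductase, the selenoenzyme that passes electrons from NADPH to thioredoxin. It had the largest change of the 10 genes, with 31.9, 30.1 and 17.1 RPKM in KD replicates 1, 2 and 3 and 7.55, 8.50 and 7.77 RPKM in NC ctrl replicates 1, 2 and 3. Every KD library was above every control library, and KD replicate 3 was between the controls and the other KD libraries. The means were 26.4 ± 8.10 (SD, n = 3) and 7.94 ± 0.494 RPKM (SD, n = 3), a ratio of 3.32. The log2 fold change of *Txnrd1* was 1.57 (SE 0.219, 95% interval 1.06 to 2.07, limma adjusted p = 0.0056). The gene rose in each of 13 alternative settings, with log2 fold changes of 1.41 to 1.84 and adjusted p of 2.0e-04 to 0.041.

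All 12 accessions of *Txnrd1* had ratios of 2.77 to 3.49 without overlap of the groups, and the 4 RefSeq mRNAs were at 3.31 to 3.32. The gene lies at chr10:82833951-82897712 on the plus strand of GRCm38 (63.8 kb) and shares 1305 bp with *Eid3* on the same strand. *Eid3* was at 1.98 ± 0.898 RPKM in KD and 0.420 ± 0.177 RPKM in NC ctrl (SD, n = 3), a difference of 1.04 on the log2 scale that is given as a description, because the gene reached the filter through its KD libraries alone. How reads in the shared stretch were assigned is not given in the sources used here, so that the *Eid3* value is uncertain.

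*Srxn1* encodes sulfiredoxin, which uses thioredoxin to restore overoxidised peroxiredoxins. It was measured at 29.8, 31.2 and 19.6 RPKM in KD and at 18.7, 18.2 and 19.0 RPKM in NC ctrl. The groups did not overlap, but KD replicate 3 exceeded the highest control library by little. Means were 26.9 ± 6.35 and 18.6 ± 0.411 RPKM (SD, n = 3), and the log2 fold change of *Srxn1* was 0.48 (SE 0.176, 95% interval 0.075 to 0.89, limma adjusted p = 0.082). With KD replicate 3 left out, it was 0.68 (limma, adjusted p = 0.0025). All 5 accessions of *Srxn1* (chr2:152105516-152111376, plus strand, 5.9 kb) had ratios of 1.35 to 1.47.

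The substrates of both enzymes were measured higher on average without passing the test. *Txn1*, thioredoxin, averaged 59.1 RPKM in KD and 43.8 RPKM in NC ctrl (log2 fold change 0.40, limma adjusted p = 0.21). *Prdx1*, a peroxiredoxin that sulfiredoxin repairs, averaged 82.8 and 67.4 RPKM (0.29, limma adjusted p = 0.13). Of the 11 other genes of the thioredoxin and peroxiredoxin list, 10 were tested, with a median log2 fold change of 0.12. By limma 0 were called, also at an unadjusted p under 0.05. With all libraries 24% of all 11701 genes tested were called. When KD replicate 3 was omitted, 3 were called higher, *Txn1* (0.63, limma adjusted p = 0.017) and *Prdx1* (0.37, limma adjusted p = 0.041) among them. Of all genes, 23.3% were called higher in that fit. The ratio of *Srxn1* to *Prdx1* on RefSeq RPKM was 0.238, 0.229 and 0.164 in KD and 0.180, 0.173 and 0.171 in NC ctrl, which overlapped (exact two-sided permutation test, p = 0.4).

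*Nqo1* encodes NAD(P)H quinone dehydrogenase, which reduces quinones without forming semiquinone radicals and is widely used as a readout of NRF2. It was at 9.49, 10.1 and 7.51 RPKM in KD and at 3.84, 4.38 and 3.92 RPKM in NC ctrl. The lowest KD library was well above the highest control. The means were 9.05 ± 1.37 and 4.05 ± 0.290 RPKM (SD, n = 3), a ratio of 2.24. The log2 fold change of *Nqo1* was 0.99 (SE 0.125, 95% interval 0.70 to 1.27, limma adjusted p = 0.0046). *Nqo1* was called higher in all 13 alternative settings, with log2 fold changes of 0.91 to 1.13 and adjusted p of 4.0e-04 to 0.036. Its 3 accessions had ratios of 2.23 to 2.29 and it lies at chr8:107388225-107403206 on the minus strand (15.0 kb).

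*Hmox1* encodes the inducible heme oxygenase, which opens heme to biliverdin, carbon monoxide and iron. *Hmox1* was at 61.3 and 60.7 RPKM in KD replicates 1 and 2 but at 28.0 RPKM in KD replicate 3, and at 38.2, 28.7 and 40.3 RPKM in NC ctrl. KD replicate 3 was thus the lowest of all 6 libraries, while the other KD libraries were the highest. Means were 50.0 ± 19.0 and 35.7 ± 6.17 RPKM (SD, n = 3), and the log2 fold change of *Hmox1* was 0.41 (SE 0.296, 95% interval -0.28 to 1.09, limma adjusted p = 0.34). In the fit without KD replicate 3 it was 0.77 (limma, adjusted p = 0.0093). The 5 accessions of *Hmox1* (chr8:75093621-75100589, plus strand, 7.0 kb) had ratios of 1.35 to 1.53, all with overlap.

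The constitutive heme oxygenase *Hmox2* gave the reference for this gene. The RefSeq ratio of *Hmox1* to *Hmox2* was 5.21, 4.39 and 2.73 in KD and 2.96, 2.55 and 3.00 in NC ctrl, with KD replicate 3 within the control range (exact two-sided permutation test, p = 0.3). Of the 6 other genes of heme and iron handling, *Slc40a1*, the iron exporter ferroportin, rose from 1.36 to 2.17 RPKM (log2 fold change 0.43, limma adjusted p = 0.027). *Blvra*, biliverdin reductase A, which converts the product of heme oxygenase, fell from 5.63 to 3.19 RPKM (-0.67, limma adjusted p = 0.013). The ferritin chains *Fth1* (106 and 96.2 RPKM, limma adjusted p = 0.70) and *Ftl1* (807 and 589.56 RPKM, limma adjusted p = 0.12) did not pass the test, with KD given first. Both ferritin genes have processed pseudogenes with which reads could be shared, so that their values are uncertain. The log2 fold change of *Ftl1* without KD replicate 3 was 0.62 (limma, adjusted p = 0.015). In that fit 2 genes of the list were called higher and 1 lower, where 23.3% and 17.8% of all genes were. With all libraries 1 was called higher and 1 lower, where 11.5% and 12.4% of all genes were.

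*Gclc* and *Gclm* encode the catalytic and the modifier subunit of glutamate-cysteine ligase, the rate-limiting enzyme of glutathione synthesis. *Gclc* was at 3.50, 3.53 and 2.78 RPKM in KD and at 2.43, 2.38 and 2.28 RPKM in NC ctrl, without overlap. Its means were 3.27 ± 0.422 and 2.36 ± 0.0744 RPKM (SD, n = 3), and it rose by 0.34 on the log2 scale (SE 0.102, 95% interval 0.11 to 0.57, limma adjusted p = 0.045). This call was fragile and was kept in 4 of 13 alternative settings. Omitting KD replicate 1 or 2 or any of the NC ctrl replicates 1, 2 and 3 gave an adjusted p of 0.10 to 0.16 for *Gclc*, and leaving out KD replicate 3 gave 0.0060 (limma). All 4 accessions of *Gclc* (chr9:77754535-77794485, plus strand, 40.0 kb) had ratios above 1, from 1.34 to 2.14, without overlap.

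*Gclm* was at 7.35, 7.73 and 4.70 RPKM in KD and at 5.04, 4.02 and 4.31 RPKM in NC ctrl. KD replicate 3 lay within the control range. On the RefSeq mRNA alone it was at 4.79 RPKM, just above the highest control at 4.67 RPKM (log2 fold change 0.50, limma adjusted p = 0.053). The means were 6.60 ± 1.65 and 4.46 ± 0.526 RPKM (SD, n = 3), and the log2 fold change of *Gclm* was 0.46 (SE 0.172, 95% interval 0.061 to 0.85, limma adjusted p = 0.088). When KD replicate 3 was omitted it was 0.65 (limma, adjusted p = 0.0033). *Gclm* (chr3:122245557-122270732, plus strand, 25.2 kb) overlaps *Gm17494* on the opposite strand over 14775 bp, and *Gm17494* was at 0.182 and 0.150 RPKM on average in KD and NC ctrl. The RefSeq ratio of *Gclm* to *Gclc* was 1.62, 1.77 and 1.26 in KD and 1.39, 1.30 and 1.42 in NC ctrl (exact two-sided permutation test, p = 0.4).

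*Slc7a11* encodes xCT, the light chain of the cystine importer that supplies cysteine for glutathione. In contrast to the genes above, it was at 1.54, 1.59 and 1.48 RPKM in KD and at 1.62, 1.69 and 1.66 RPKM in NC ctrl. All KD libraries were below all control libraries, by a small margin. The means were 1.54 ± 0.0562 and 1.66 ± 0.0359 RPKM (SD, n = 3), and the log2 fold change of *Slc7a11* was -0.066 (SE 0.0823, 95% interval -0.26 to 0.12, limma adjusted p = 0.58). The interval excludes a rise of the size seen for *Nqo1* or *Txnrd1*. On the RefSeq mRNA alone the groups overlapped, with 4.12, 4.50 and 4.68 RPKM in KD and 4.26, 4.96 and 4.39 RPKM in NC ctrl.

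The heavy chain of the same importer, *Slc3a2*, rose from 11.3 ± 1.07 to 20.3 ± 5.03 RPKM (SD, n = 3), a log2 fold change of 0.76 (SE 0.186, limma adjusted p = 0.024). The RefSeq ratio of *Slc3a2* to *Slc7a11* was 4.31, 4.18 and 2.45 in KD and 1.91, 1.95 and 2.13 in NC ctrl, without overlap (exact permutation test, two-sided, p = 0.1, which is the minimum for 3 libraries a group). *Slc3a2* also serves other amino acid transporters. *Slc7a11* spans 551.1 kb at chr3:49892526-50443614 on the minus strand and had 14 accessions, the most of the 10 genes. Of these, 12 had ratios below 1 and 2 GenBank clones above 1 (1.35 and 1.49), from 0.764 to 1.49 in all.

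*Gsr* encodes glutathione reductase, which returns oxidised glutathione to its reduced form with NADPH. It was at 2.94, 2.53 and 1.59 RPKM in KD and at 2.81, 1.94 and 2.73 RPKM in NC ctrl, so that the groups overlapped and KD replicate 3 was the lowest library. The means were 2.36 ± 0.692 and 2.50 ± 0.479 RPKM (SD, n = 3), and the log2 fold change of *Gsr* was -0.071 (SE 0.173, 95% interval -0.47 to 0.33, limma adjusted p = 0.79). Its sign turned without KD replicate 3, to 0.10 (limma, adjusted p = 0.55). Set against the reductase of the thioredoxin system, the RefSeq ratio of *Txnrd1* to *Gsr* was 13.9, 15.3 and 13.8 in KD and 3.50, 5.50 and 3.58 in NC ctrl (exact two-sided permutation test, p = 0.1). In this ratio KD replicate 3 was level with the other KD libraries. *Gsr* lies at chr8:33652523-33698163 (plus strand, 45.6 kb), and of its 10 accessions 8 had ratios below 1.

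Of the 9 other genes of glutathione handling, 7 were tested, with a median log2 fold change of 0.27. Besides *Slc3a2*, *Gss* rose, which encodes glutathione synthetase for the last step of glutathione synthesis (3.67 and 2.35 RPKM in KD and NC ctrl, log2 fold change 0.47, limma adjusted p = 0.035). By limma 2 were called higher and 0 lower, where 11.5% and 12.4% of all genes were. At an unadjusted p under 0.05 it would be 4 higher and 1 lower. That level was reached by 4556 of all 11701 genes tested, in either direction. Of the 7, 4 were called higher and 0 lower without KD replicate 3, where 23.3% and 17.8% of all genes were.

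*G6pdx* encodes X-linked glucose-6-phosphate dehydrogenase, the entry enzyme of the pentose phosphate pathway and a major source of cytosolic NADPH. It went the other way, with 36.8, 38.5 and 34.1 RPKM in KD and 51.5, 41.9 and 53.0 RPKM in NC ctrl. The groups did not overlap, with all KD libraries, replicate 3 included, below the lowest control. The means were 36.5 ± 2.21 and 48.8 ± 6.02 RPKM (SD, n = 3), a ratio of 0.748. The log2 fold change of *G6pdx* was -0.40 (SE 0.133, 95% interval -0.71 to -0.097, limma adjusted p = 0.061). It was called lower in 3 of 13 alternative settings: on RefSeq mRNAs (adjusted p = 0.046), after scaling by the median of ratios (0.030) and without NC ctrl replicate 2 (0.0498, all limma).

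All 5 accessions of *G6pdx* had ratios below 1, from 0.735 to 0.799. The gene lies at chrX:74409483-74429194 on the minus strand (19.7 kb), and *Ikbkg* covers its 19712 bp on the opposite strand. *Ikbkg* was at 3.88 ± 0.334 RPKM in KD and 3.68 ± 0.108 RPKM in NC ctrl (SD, n = 3, limma adjusted p = 0.66), far below *G6pdx*. Whether reads were counted by strand is not given in the sources used here. All 6 other genes of NADPH supply were tested, with a median log2 fold change of -0.27. Of these 1, *Idh1*, was called lower, where 12.4% of all genes were. All 6 values were below 0 with all libraries, but without KD replicate 3 that of *Pgd* was 0.14 (limma, adjusted p = 0.57), a gene singled out after its values were seen. *Idh1*, the cytosolic isocitrate dehydrogenase, fell from 167 to 115 RPKM (-0.55, limma adjusted p = 0.047). It was also the 1 call of this list without KD replicate 3 (-0.67, limma adjusted p = 0.013), where 17.8% of all genes were called lower. Adipocyte markers were lower in KD as well, and their part in the *G6pdx* and *Idh1* values was not tested.

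*Nfe2l2* itself was at 16.8, 18.4 and 13.6 RPKM in KD and at 13.6, 12.1 and 13.5 RPKM in NC ctrl. KD replicates 1 and 2 were above all controls, and KD replicate 3 was level with them. The means were 16.3 ± 2.45 and 13.1 ± 0.833 RPKM (SD, n = 3), a ratio of 1.24. The log2 fold change of *Nfe2l2* was 0.28 (SE 0.133, 95% interval -0.023 to 0.59, limma adjusted p = 0.15). It was 0.40 without KD replicate 3 (limma, adjusted p = 0.023). *Nfe2l2* lies at chr2:75675513-75704641 on the minus strand (29.1 kb) and its 4 accessions had ratios of 1.22 to 1.78, with 1.22 for the RefSeq mRNA and 1.78 for a short processed Ensembl transcript of 1447 bases.

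**Figure D2:**
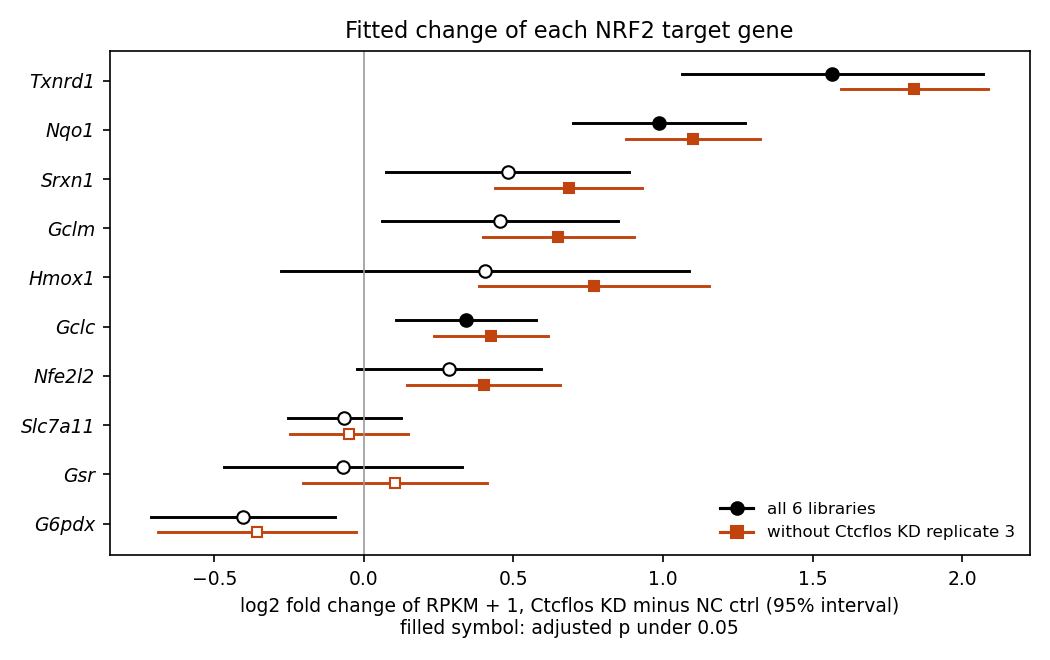
Fitted log2 fold change of RPKM + 1 in *Ctcflos* KD against NC ctrl for each NRF2 target gene, with bars for the 95% interval, black for all 6 libraries and red for the fit without KD replicate 3; filled symbols have an adjusted p under 0.05 (limma). *Txnrd1* (1.57) and *Nqo1* (0.99) stand above the other genes in both fits, and *G6pdx* (-0.40) has the lowest value.

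Of the 13 genes that control NRF2 or share its partners, 11 were tested. By limma 1 was called higher and 0 lower, where 11.5% and 12.4% of all genes were. At an unadjusted p under 0.05 it would be 5 and 0, and the median log2 fold change was 0.29. At that unadjusted level were 4556 of all 11701 genes tested, in either direction. *Nfe2l3*, at 1.27 and 0.850 RPKM in KD and NC ctrl, reached the filter through its KD libraries alone. It is among the 5 and its value is the median, so that its part in both has no weight of its own. *Mafk*, one of the small MAF partners of NRF2, rose from 2.04 ± 0.0705 to 6.32 ± 2.68 RPKM (SD, n = 3), a log2 fold change of 1.19 (SE 0.264, limma adjusted p = 0.019). The other small MAF genes were at 6.94 and 4.06 RPKM for *Mafg* (KD and NC ctrl means; log2 fold change 0.61, limma adjusted p = 0.057) and at 8.86 and 6.64 RPKM for *Maff* (0.35, limma adjusted p = 0.18). *Sqstm1*, the p62 adaptor that draws KEAP1 into autophagy, was at 150 ± 52.0 and 84.0 ± 9.41 RPKM (0.76, limma adjusted p = 0.072). *Bach1*, a repressor that competes for AREs, was at 9.55 and 6.82 RPKM (0.41, limma adjusted p = 0.089).

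The ligase that degrades NRF2 showed small differences. *Keap1* was at 10.4 ± 2.59 RPKM in KD and 9.61 ± 1.74 RPKM in NC ctrl (SD, n = 3), with a log2 fold change of 0.085 (limma, adjusted p = 0.78). *Cul3* averaged 8.82 and 8.44 RPKM (0.050, limma adjusted p = 0.79) and *Rbx1* 15.4 and 13.0 RPKM (0.23, limma adjusted p = 0.15). Of the kinase and the relatives of NRF2, *Gsk3b* (-0.16, limma adjusted p = 0.39), *Nfe2l1* (-0.23, limma adjusted p = 0.17) and *Nfe2l3* (0.29, limma adjusted p = 0.11) did not pass the test. *Bach2*, at 0.0285 and 0.0522 RPKM, and *Btrc*, at 0.648 and 0.739 RPKM, were under the filter. Without KD replicate 3, 5 genes of this list were called higher: *Mafk* (1.55), *Sqstm1* (1.09), *Mafg* (0.85), *Bach1* (0.58) and *Maff* (0.54). In that fit 23.3% of all genes were called higher.

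Of the 9 detoxification enzymes, 3 were called higher and 0 lower (limma, or 4 and 0 at an unadjusted p under 0.05), where 11.5% of all genes were called higher, and the median log2 fold change was 0.34. Of all 11701 genes tested, 4556 were at that unadjusted level in either direction. The aldo-keto reductases *Akr1b3* (12.0 and 5.30 RPKM in KD and NC ctrl, log2 fold change 0.99, limma adjusted p = 0.022) and *Akr1b8* (21.1 and 11.3 RPKM, 0.83, limma adjusted p = 0.019) rose. The other call was *Osgin1*, an oxidative stress-induced growth inhibitor, at 1.80 ± 0.871 RPKM in KD and 0.331 ± 0.0747 RPKM in NC ctrl (SD, n = 3). It reached the filter through its KD libraries alone, so that its call has no weight of its own in this count, and without a filter its log2 fold change was 1.02 (limma, adjusted p = 0.049). Of the 9, 5 were called higher without KD replicate 3, where 23.3% of all genes were.

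Enzymes that remove superoxide and peroxide did not share a direction, with 1 of 9 called higher, 1 lower and a median of -0.019, and 1 higher and 2 lower without KD replicate 3. Of all genes, 11.5% were called higher and 12.4% lower with all libraries, and 23.3% and 17.8% without KD replicate 3. *Gpx8*, a glutathione peroxidase of the endoplasmic reticulum, rose from 49.0 to 72.4 RPKM (0.54, limma adjusted p = 0.043), and *Sod2*, the mitochondrial superoxide dismutase, fell from 66.0 to 45.9 RPKM (-0.51, limma adjusted p = 0.035). The cytosolic *Sod1* was at 54.3 and 55.1 RPKM (-0.019, limma adjusted p = 0.93) and catalase, *Cat*, at 109 and 115 RPKM (-0.072, limma adjusted p = 0.71). *Atf4*, which activates amino acid and stress genes and shares *Slc7a11* as a target, was at 106 and 81.5 RPKM (0.37, limma adjusted p = 0.099, and 0.48 with an adjusted p of 0.027 without KD replicate 3). Among the 8 genes of the ATF4 list only *Atf3*, a stress-induced transcription factor, was called (5.64 and 2.22 RPKM, 0.98, limma adjusted p = 0.027), and the list had a median of 0.13. Without KD replicate 3, 2 genes of this list were called higher and 1 lower, against 23.3% and 17.8% of all genes. With all libraries 1 was called higher and 0 lower, against 11.5% and 12.4% of all genes.

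In all, 66 genes of the 8 other lists were tested, and 12 were called (18.2%), against 24% of all genes. Of these, 9 rose, *Osgin1* included (13.6%, against 11.5% of all genes), and 3 fell (4.55%, against 12.4%). Without KD replicate 3 there were 27 calls among 64 genes tested (42.2%, against 41.1% of all genes), which kept all 12, and without NC ctrl replicate 2 there were 5, which kept 3 (*Blvra*, *Osgin1* and *Sod2*). Without KD replicate 1, and likewise without KD replicate 2, the 1 call was *Blvra*, and without NC ctrl replicate 1 or 3 there were 0 (limma, with 15 and 16 at an unadjusted p under 0.05), while *Txnrd1* and *Nqo1* were called in each of these fits. How many of all genes were at that unadjusted level in these fits was not counted. At an adjusted p under 0.05 calls over all genes were fewer in these fits as well. They were 1164 and 1094 without KD replicates 1 and 2, against 2803 with all libraries. Without NC ctrl replicates 1, 2 and 3 they were 421, 1583 and 369 (all limma).

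**Figure D3:**
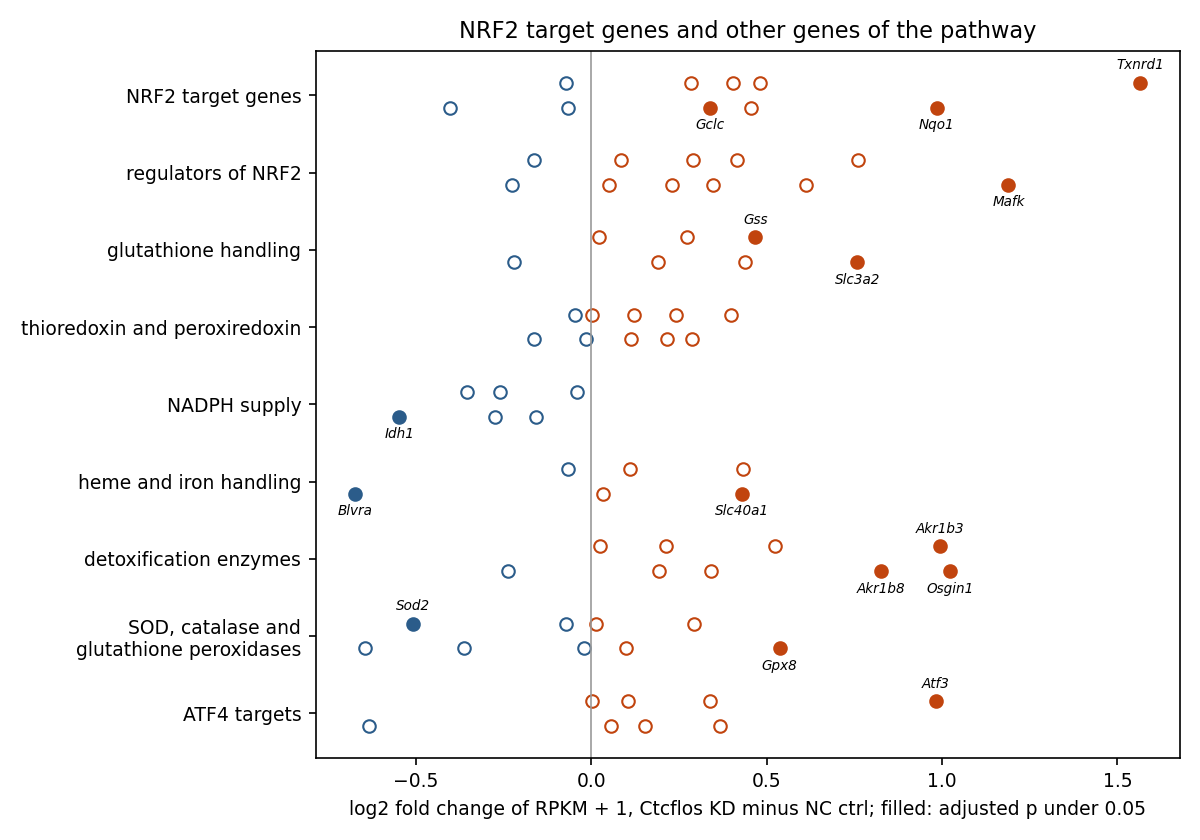
Fitted log2 fold change of RPKM + 1, *Ctcflos* KD minus NC ctrl, for the 10 NRF2 target genes and the 66 tested genes of 8 other lists, with 1 point per gene, red above 0 and blue below; filled points with a name have an adjusted p under 0.05 (limma). Called genes above 0 occur in 6 of the 8 other lists, and all 6 genes of NADPH supply lie below 0 in this fit of all libraries (*Pgd* is at 0.14 without KD replicate 3).

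Per length, on RefSeq mRNAs, *G6pdx* was the most abundant of the 10 genes in NC ctrl with 81.6 ± 10.1 RPKM, followed by *Hmox1* with 61.2 ± 11.2 RPKM (SD, n = 3). *Srxn1* (24.7 ± 0.828 RPKM) and *Nfe2l2* (24.5 ± 1.61 RPKM) were next and overlapped. *Txnrd1* followed at 11.3 ± 0.571 RPKM and *Nqo1* at 5.44 ± 0.421 RPKM. *Slc7a11* (4.54 ± 0.372 RPKM) and *Gclm* (4.38 ± 0.290 RPKM) overlapped, and *Gclc* (3.20 ± 0.146 RPKM) overlapped with *Gsr* (2.79 ± 0.535 RPKM) in part of its range. In KD, *Hmox1* averaged 85.9 ± 31.9 RPKM and *G6pdx* 60.0 ± 4.43 RPKM, with overlap, and *Txnrd1* reached 37.4 ± 11.4 RPKM, above *Nfe2l2* at 30.0 ± 4.19 RPKM on average but with overlap.

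**Figure D4:**
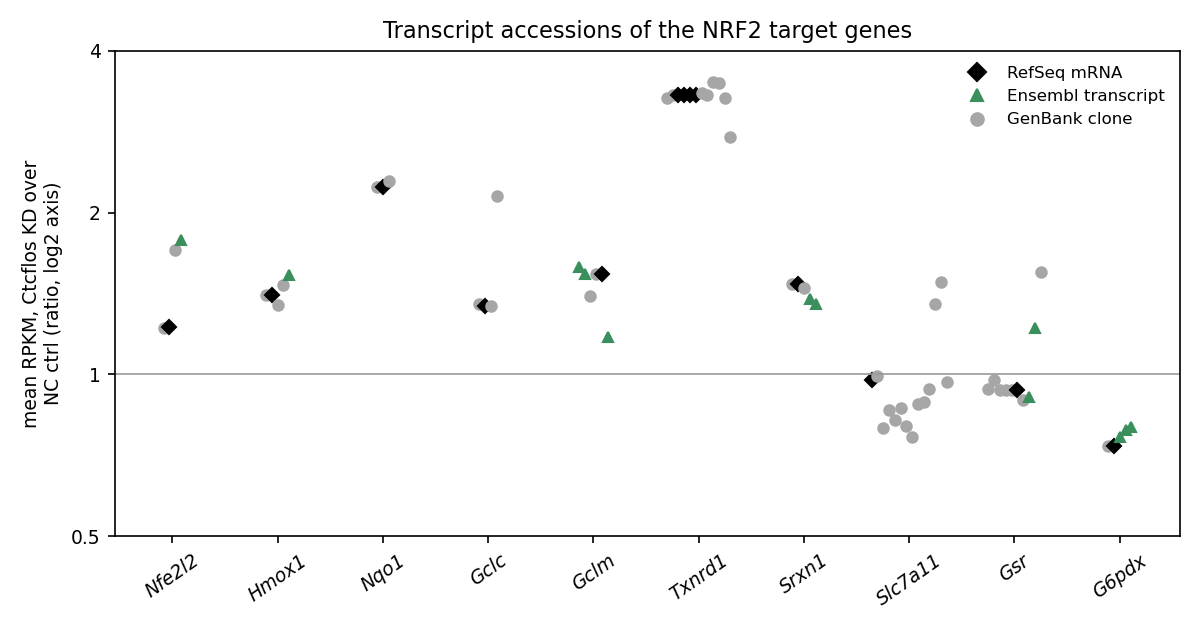
Ratio of mean RPKM in *Ctcflos* KD over NC ctrl for each of the 68 transcript accessions of the 10 NRF2 target genes, on a log2 axis, as diamonds for RefSeq mRNAs, triangles for Ensembl transcripts and circles for GenBank clones. Accessions of a gene share reads; the 12 of *Txnrd1* lie between 2.77 and 3.49 and the 5 of *G6pdx* between 0.735 and 0.799, while *Slc7a11* and *Gsr* have accessions on both sides of 1.

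Over the 6 libraries, *Nfe2l2* varied most closely with *Gclm* (Pearson r = 0.98) and *Srxn1* (0.97), then with *Gclc* (0.92), *Hmox1* (0.91), *Txnrd1* (0.87) and *Nqo1* (0.83), all on log2(RPKM + 1). For *Gsr*, *Slc7a11* and *G6pdx* it was 0.46, -0.38 and -0.39. Among all genes tested, *Ccdc71l* (0.997), *Tspyl1* (0.997) and *H2-M3* (0.996) were most like *Nfe2l2*. These coefficients describe 6 points that share groups and the position of KD replicate 3. That library stood at 0.784 times the control mean for *Hmox1*, at 1.04 for *Nfe2l2*, at 1.05 for *Gclm* and for *Srxn1*, and at 1.18 for *Gclc*, where KD replicates 1 and 2 averaged 1.71, 1.34, 1.69, 1.64 and 1.49 times the control mean in the same order.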

How the data were processed

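Total RNA of 6 libraries was prepared with a stranded Illumina kit. The authors deposited 1 table of RPKM per transcript accession of RefSeq, Ensembl and GenBank, with decimal commas, and replicates were not pooled. The study's methods name STAR and GRCm38 for a splice analysis of these reads, while the aligner and counting behind the table are not given in the sources used here. Of 168326 lines, 305 exact repeats were removed.

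The value of a gene is the mean RPKM over its accessions. Genes with a mean of at least 1 RPKM were tested with limma-trend on log2(RPKM + 1) over all 6 libraries, with Benjamini-Hochberg adjustment over all genes. Fold changes on this scale understate the change of genes near 1 RPKM. Of the list genes tested, *Osgin1*, *Nfe2l3*, *Gstp1* and *Txnrd3* averaged under 1 RPKM in NC ctrl and reached the filter through KD. Their places in counts and medians have no weight of their own. Count tests were not used. RefSeq values are means over curated mRNAs (NM accessions). Single ratios were compared by exact two-sided permutation tests, which for 3 against 3 libraries cannot go below p = 0.1.

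The 10 genes and the other lists were chosen with earlier results of these data known. Named are all 10 genes, all regulators of NRF2, *Slc3a2*, called genes of each other pathway list (up to 4, largest change first), *Txn1*, *Prdx1*, *Sod1*, *Sod2*, *Cat*, *Fth1*, *Ftl1*, *Atf4* and the 3 genes most like *Nfe2l2*. Marker genes, *Hmox2*, *Gstp1*, *Txnrd3* and overlapping genes were named in addition, after their values were seen. *Adgre1* was matched as *Emr1* and *Ctcflos* as 1300015D01Rik.

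Depth was recovered from low RPKM values of Ensembl transcripts, which for 96.8 to 97.6% fell within 0.1 of a whole read, and 1 read on 1 kb gave 0.0126 to 0.0165 RPKM. Positions and overlaps come from GENCODE vM21 (GRCm38) and start windows from RefSeq (GRCm38.p6). The fit was tested on simulated data. The 13 alternatives were a pseudocount of 0.1, no filter, median-of-ratios scaling, a block for the replicate number, RefSeq mRNAs only, the most abundant accession, an adjusted p of 0.01 and each library left out. R 4.3.3, limma 3.58.1, Python 3.11.15, pandas 2.3.3, numpy 2.4.6 and matplotlib 3.10.9 were used.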

Additional observations from a re-analysis of the deposited data

How the results depend on the processing

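The number of genes called moved from 2803 to 1807 without a filter, 1671 with the replicate block and 523 at an adjusted p under 0.01, and to between 369 (without NC ctrl replicate 3) and 4810 (without KD replicate 3) when a library was left out, with 421, 1583, 1164 and 1094 without NC ctrl replicates 1 and 2 and KD replicates 1 and 2. Of the 10 NRF2 genes, between 2 and 7 were called when a library was left out, 7 only without KD replicate 3. The 12 calls in the other pathway lists became 3 without a filter, 6 with the replicate block, 0 at an adjusted p under 0.01 (limma, with 27 at an unadjusted p under 0.05) and 0 to 27 when a library was left out. With all libraries, 4556 of all 11701 genes tested were at that unadjusted level. The log2 fold change of *Ctcflos* (-0.66) had an adjusted p of 0.11 with the replicate block and of 0.025 against the threshold of 0.01, and without single libraries it was -0.72 to -0.63 with adjusted p of 0.0097 to 0.13. *Gsr* turned to 0.10 without KD replicate 3, with a range of -0.20 to 0.10 over the libraries left out. The cause of these shifts was not tested.

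Same-numbered libraries deviated together with correlations of 0.29, -0.29 and -0.42. Coefficients from groups of only 3 libraries cannot decide whether the numbers pair the samples. With the replicate block *Gclc* had an adjusted p of 0.082 (limma) and *Txnrd1* and *Nqo1* were called. *Gclc* was also not called without a filter, on the most abundant accession and at an adjusted p under 0.01. Scaling by the median of ratios moved the median of all genes to 0.0044. *Ctcflos* has no value with the filter or on RefSeq mRNAs alone. With RPKM near 1, as for *Slc7a11*, the log2(RPKM + 1) scale limits the size of change that can be seen.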
